A study of Mus musculus with 3 samples.

Results

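Chemokines and proinflammatory cytokines were described here in microglia through 10 genes of the 32285 in the count tables. They are the CC chemokines Ccl2, Ccl3, Ccl4, Ccl7 and Ccl12, the CXC chemokines Cxcl2 and Cxcl10, and the cytokines Tnf, Il1a and Il1b. Of these, Ccl7, Il1b and Cxcl2 were counted more in a small mixed immune sub-cluster than in microglia, as given below. The genes were selected with their measured levels in these same libraries in view, so that all levels and changes below are a description of the libraries and no test of the choice. Single-cell RNA sequencing was done on brain cells of adult male WT C57BL6J mice, either naive or after a transient ischemic attack (TIA), in which the middle cerebral artery was closed by a filament for 5 min. The 3 groups were naive, 24 h after TIA and 3 d after TIA. Each group was 1 library of cells pooled from 3 mice, with white matter and meninges taken off. After TIA, the hemisphere on the side of the occlusion was used. Cells were freed with papain, sorted as propidium iodide-negative and run on the 10x Genomics 3′ v3.1 chemistry.

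Chemokines are small secreted proteins that guide leukocytes along a gradient by way of G protein-coupled receptors, and microglia, the resident macrophages of the brain, are a known source of them. Tnf and the IL-1 cytokines act on neighboring glia and endothelium and, through NF-κB, induce further chemokines. Transcripts of many of these genes are short-lived and can also be induced while tissue is being dissociated.

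The libraries held 4804 cells in naive, 1619 at 24 h and 5505 at 3 d, with 37987228, 12919691 and 48636436 unique molecular identifiers (UMIs, each standing for 1 captured transcript). Cells with at least 500 detected genes and at most 7% mitochondrial UMIs were kept, which left 4018, 1225 and 4781 cells with median depths of 7750, 8123 and 7868 UMIs. Naive and 24 h shared 3 cell barcodes, naive and 3 d shared 8, and 24 h and 3 d shared 4. With 1 library per group there was no replicate check, a library and its condition cannot be told apart, and both TIA libraries were set against the same naive library. All intervals are at 95% and cover counting error only.

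Microglia-like cells, called microglia from here on, were 974 cells in naive, 270 at 24 h and 1212 at 3 d. In both clusters of this class, 12 of 12 microglial markers were found, and Cx3cr1 and C1qa were each detected in 99.5% to 100% of the cells of every library. P2ry12, the purinergic receptor that marks resting microglia, was at 2779 CPM in naive, 1663 at 24 h and 2229.5 at 3 d, where CPM are the UMIs of a gene summed over the cells of a class and scaled to 1000000 UMIs of that class. One of the clusters held 87.7%, 75.2% and 74.8% of the class, and the other was led by Cxcl10, Ccl12, Ifi204, Ccl2 and Tnf, so that its size was not compared. Microglia had median depths of 7786, 9338 and 7666 UMIs.

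Microglia had the highest level of all 10 transcripts among the 6 cell classes that had at least 50 cells in every library. The other 5 classes were astrocytes, oligodendrocytes, endothelial cells, pericytes and neuron-like cells. This held in all 3 libraries for 10 of 10 genes. For Cxcl2 it rests on very few counts, 5 UMIs in microglia in naive, against 1 in neuron-like cells, and 5 at 3 d. The count of genes highest in microglia was 9 when only cells failing both limits were left out. It was 8 when microglia were taken by markers without clusters. That choice took 1147, 149 and 1111 cells, far fewer at 24 h than the 270 above, and allowed at most 1 UMI of border-associated macrophage markers. Stab1, a marker of such macrophages, was itself at 164, 236 and 191 CPM in microglia. The summed level of the 10 genes in microglia was 1855 CPM in naive (1825 to 1886), 3091 at 24 h (3025 to 3157) and 1947 at 3 d (1919.8 to 1975). In the other 5 classes it ran from 8.58 CPM in endothelial cells at 24 h to 138 CPM in oligodendrocytes at 3 d. Microglia held 71.4%, 79.3% and 65.3% of the UMIs of these genes in the kept cells. The 5 leading microglia held 9.09%, 25.6% and 11.6% of those in the class, most at 24 h, and 0 of the 5 were called doublets in any library. At 24 h this says little, since only 6 of the 1225 kept cells were called doublets at all. The median depth of the 5 cells was 9786, 19595 and 8552 UMIs.

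**Figure D1:**
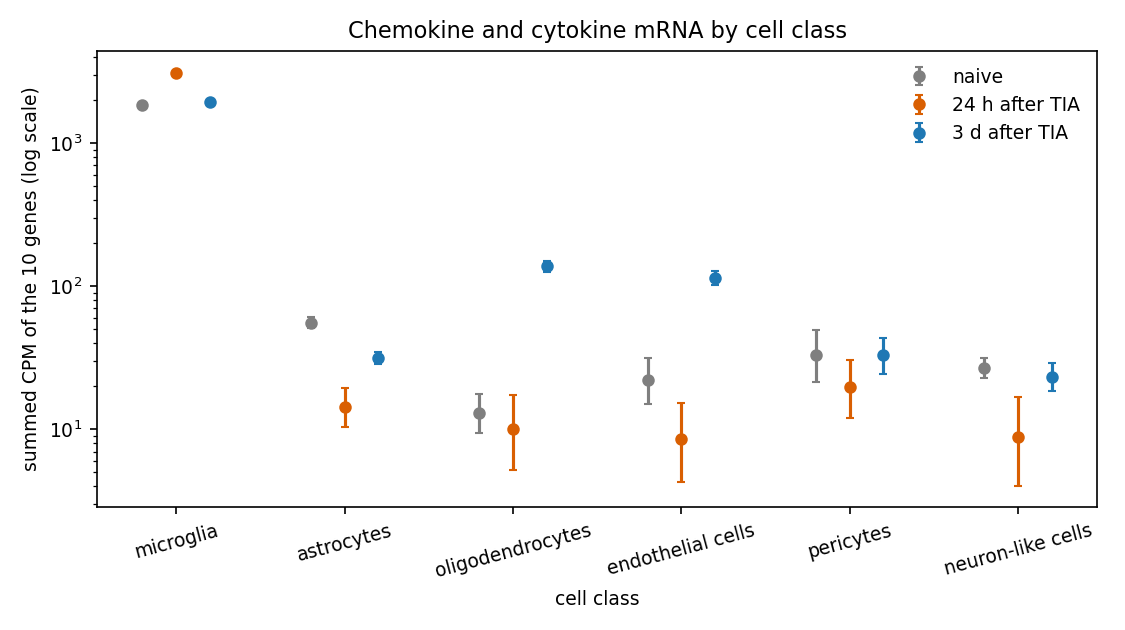
Summed CPM of the 10 genes (log scale) in 6 cell classes, 1 point per library (gray naive, orange 24 h, blue 3 d after TIA), with exact Poisson intervals at 95%. Microglia lie at 1855, 3091 and 1947 CPM and every other class at or below 138 CPM.

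A few cells often carried much of what was seen in the other classes, and in some of the groups these cells were called doublets. In oligodendrocytes at 3 d, 5 of 250 cells held 89.6% of the UMIs of the 10 genes. These 5 cells had a median of 263 UMIs of the 12 microglial markers against 3 in the rest of the class, and all 5 were called doublets by Scrublet. The 5 leading endothelial cells at 3 d held 61.9% of the UMIs, with a median of 200 microglial marker UMIs against 2, and the 5 leading astrocytes in naive held 41.8%, with 225 against 3. All 5 were called doublets in both of these groups, and also in astrocytes at 3 d and in neuron-like cells in naive. In several groups with few UMIs of the 10 genes, at most 43, fewer of the leading cells were called. The doublets were 2 of the 5 leading cells in naive oligodendrocytes (67.4% of the UMIs, with 3 microglial marker UMIs against 3) and 1 of 5 in astrocytes at 24 h (65.9%, with 5 against 3). They were 0 of 5 in endothelial cells (54.5%) and neuron-like cells (66.7%) at 24 h, and in pericytes in naive (29.2%) and at 24 h (25%). Among the other classes, the share was lowest in the pericytes of all 3 libraries and in astrocytes at 3 d (32.7%, as in pericytes at 3 d). Of the kept cells, Scrublet called 122 in naive, 6 at 24 h and 140 at 3 d, and 8, 1 and 6 of these were among the microglia.

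Outside these 6 classes, a small immune sub-cluster held 9.97%, 13.5% and 16.0% of the UMIs of the 10 genes, and a high-depth sub-cluster with microglial markers held 10.3%, 5.32% and 12.7%. The immune sub-cluster had 40, 17 and 48 cells with markers of border-associated macrophages and of neutrophils side by side, and was left unnamed. Ccl7, a monocyte-attracting ligand of Ccr2, had 72.2% of its UMIs there in naive (144 UMIs in all kept cells), 90.9% at 24 h (276) and 48.2% at 3 d (85). The same cells held 75.5%, 68.0% and 48.5% of the UMIs of Il1b, the secreted IL-1 that needs cleavage by caspase 1, and 77.8%, 61.1% and 82.8% of those of Cxcl2, which draws neutrophils through Cxcr2. Cxcl10, the interferon-induced ligand of Cxcr3, had 98.3%, 88.2% and 71.3% of its UMIs in microglia and 0%, 0% and 24.3% in the mixed immune cells. In naive, Il1b was at 185 CPM in the mixed immune cells and 5.92 CPM in microglia, and Ccl7 at 120.2 CPM against 4.76 CPM. Ccl2 (213 against 61.0 CPM), Ccl3 (599 against 400.1 CPM) and Cxcl2 (24.3 against 0.643 CPM) also had the higher level in the mixed immune cells, and so had the sum of the 10 genes (2327 against 1855 CPM), while Ccl4, Ccl12, Il1a and Cxcl10 had the lower one and Tnf was at 46.2 against 43.8 CPM. At 24 h these cells held 46.1% of the UMIs of Ccl2. On only 17 cells at 24 h, Ccl2 was at 1016 CPM, Ccl7 at 820 CPM and Ccl12 at 568 CPM, all above naive. Ccl3, Cxcl2 and Tnf also stood above naive there, and Il1a below it. Ccl4 and Il1b were near their naive levels, with log2 ratios of -0.07 (-0.28 to 0.14) and -0.15 (-0.64 to 0.31). At 3 d the sub-cluster had Ccl7 at 15.7 CPM, Il1b at 54.8 CPM and Ccl12 at 281 CPM, the last against 101 CPM in naive. Ccl2 was at 86.3 CPM, below its naive level, and Cxcl10, at 0 there in naive, was at 80.5 CPM (210 UMIs), against 61.4 CPM in microglia. With each cell thinned to 2000 UMIs, Cxcl10 was seen in 3 of 47 of these cells at 3 d. The median depth of the sub-cluster was 16300 UMIs in naive and 46392 at 3 d. Cells with most neutrophil markers were 1 and 9, so that the makeup of the sub-cluster was not the same.

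Within microglia, the chemokines Ccl4 and Ccl3 stood highest, and Cxcl2 was barely detected outside the 24 h library. A 3′ tag is counted a single time per captured transcript, so CPM were not divided by gene length. In naive the order was Ccl4, Ccl3, Il1a, Ccl12, Ccl2, Tnf, Cxcl10, Il1b, Ccl7 and Cxcl2, from 935 to 0.643 CPM. Only the neighbors Il1b (5.92 CPM, 4.33 to 7.90) and Ccl7 (4.76 CPM, 3.35 to 6.56) had overlapping counting intervals in this order. At 24 h Tnf (187 CPM, 171 to 204) stood above Ccl2 and next to Ccl12 (165 CPM, 150.1 to 181), with overlapping intervals for this last pair, and at 3 d Ccl12 stood above Il1a.

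**Figure D2:**
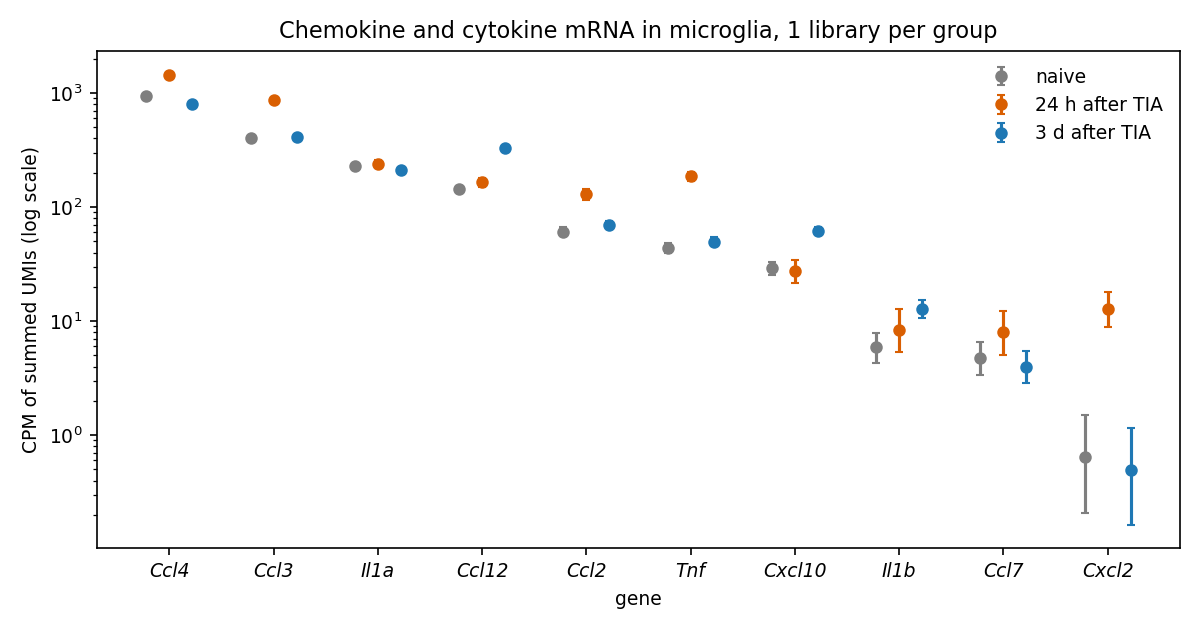
CPM of each gene in microglia (log scale), 1 point per library (gray naive, orange 24 h, blue 3 d after TIA) with exact Poisson intervals at 95%. Tnf was at 43.8, 187 and 49.8 CPM, highest at 24 h, and Ccl12 at 145, 165 and 329 CPM, highest at 3 d.

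At 24 h after TIA, 4 of the 10 genes were at least 2-fold higher in microglia than in naive and 0 were at least 2-fold lower: Tnf, Ccl3, Ccl2 and Cxcl2. All 10 had the 30 UMIs over both libraries that such a call required. Over all 11515 genes with as many UMIs, 2.39% were at least 2-fold higher and 2.64% at least 2-fold lower, and nothing is read from this since the genes were chosen on these libraries. The median log2 ratio of the 10 genes was 0.69, and that of all genes 0.05.

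Tnf, the cytokine that engages Tnfrsf1a and Tnfrsf1b, was at 43.8 CPM in naive (340 UMIs), 187 CPM at 24 h (509 UMIs) and 49.8 CPM at 3 d (498 UMIs). The 24 h library was the high one, and naive and 3 d overlapped in their counting intervals. The ratio of 24 h to naive was 4.27-fold, which is 2.09 on the log2 scale (1.89 to 2.30), and at 3 d the log2 value was 0.19 (-0.02 to 0.39). The 5 cells with most Tnf held 22.9%, 37.5% and 18.9% of its UMIs, and without them the log2 ratio at 24 h was 1.84. With microglia taken by markers without clusters, 149 cells at 24 h in place of 270, it was 1.21. In the few microglia with at most 1 UMI of other classes' markers, 39 cells at 24 h, it was 3.45.

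Ccl3, a ligand of Ccr1 that attracts monocytes and T cells, was at 400.1 CPM in naive (3109 UMIs), 868 CPM at 24 h (2367 UMIs) and 409 CPM at 3 d (4096 UMIs). As for Tnf, the 24 h library stood alone. Its log2 ratio at 24 h was 1.12 (1.04 to 1.19). It was 0.97 with unnamed clusters of microglial markers added and 0.95 without the 5 leading cells, both below 2-fold.

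Ccl2, the main ligand of Ccr2 on monocytes, was at 61.0 CPM in naive (474 UMIs), 129 CPM at 24 h (353 UMIs) and 69.5 CPM at 3 d (696 UMIs). At 24 h, 5 of 270 microglia held 58.9% of its UMIs, and a single cell held 96 of them. The log2 ratio at 24 h was 1.09 (0.88 to 1.29), and it was 0.49 without the 5 leading cells of each library and 0.97 in microglia taken by markers.

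Cxcl2 had 5 UMIs in naive (0.643 CPM), 35 at 24 h (12.8 CPM) and 5 at 3 d (0.5 CPM). The 35 UMIs came from 6 cells, and 97.1% of them from 5 cells. The log2 ratio at 24 h of 4.32 (2.96 to 6.03) describes a handful of cells, and without the 5 leading cells too few UMIs were left for a ratio. In microglia taken by markers it was not called.

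The other ligands were not called at 24 h. Ccl4, which like Ccl3 attracts monocytes and T cells, was the most abundant of the genes, with 935 CPM in naive, 1445 at 24 h and 800.2 at 3 d, with log2 values against naive of 0.63 (0.57 to 0.68) and -0.23 (-0.27 to -0.18). Il1a, the IL-1 form that is active without cleavage, was at 229, 239.8 and 211 CPM. Its log2 ratios were 0.07 (-0.07 to 0.20) and -0.12 (-0.21 to -0.03). Without its 5 leading cells, which held 31.5% of the UMIs at 24 h, the first was -0.34, and in microglia with at most 1 UMI of other classes' markers the second was -1.0. Ccl7 had 37, 22 and 40 UMIs (4.76, 8.07 and 4 CPM), and its intervals at both times included 0. Its log2 ratio changed with the choice of cells, from -0.27 to 2.60 at 24 h and from -1.40 to 2.54 at 3 d.

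At 3 d after TIA, 3 genes were at least 2-fold higher than in naive and 0 were at least 2-fold lower: Ccl12, Cxcl10 and Il1b. Of the 10 genes, 9 had the 30 UMIs required, and Cxcl2 did not. Over the 12507 genes with as many UMIs, 1.71% were at least 2-fold higher and 0.959% at least 2-fold lower, from which again nothing is read. The median log2 ratio of the 9 genes with enough UMIs was 0.19, and that of all genes with as many 0.06.

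Ccl12, a mouse ligand of Ccr2, was at 145 CPM in naive (1129 UMIs), 165 CPM at 24 h (450 UMIs) and 329 CPM at 3 d (3293 UMIs). Here the 3 d library was the high one. The log2 ratio was 0.18 at 24 h (0.02 to 0.34) and 1.18 at 3 d (1.08 to 1.28). The 5 leading cells held 43.8%, 34.7% and 28.2% of the UMIs, and without them the ratio at 3 d was 1.53.

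Cxcl10 was at 29.2 CPM in naive (227 UMIs), 27.5 CPM at 24 h (75 UMIs) and 61.4 CPM at 3 d (615 UMIs). It was held by 26, 12 and 43 microglia, and 5 cells had 78.9%, 82.7% and 65.7% of the UMIs. The log2 ratio was -0.09 at 24 h (-0.48 to 0.30) and 1.07 at 3 d (0.85 to 1.30). At 24 h it was -3.00 in microglia taken by markers and 2.01 in those with at most 1 UMI of other classes' markers, and at 3 d it was 1.78 without the 5 leading cells.

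Il1b was at 5.92 CPM in naive (46 UMIs), 8.43 CPM at 24 h (23 UMIs) and 12.8 CPM at 3 d (128 UMIs). The log2 ratio at 3 d was 1.11 (0.61 to 1.63), and at 24 h the interval of -0.28 to 1.26 included 0, and it was -0.58 without the 5 leading cells. A single cell gave 48 of the 128 UMIs, and without the 5 leading cells the ratio at 3 d was 1.72. In the mixed immune cells, which held much of the Il1b, the ratio at 3 d had the opposite sign, -1.75 (-2.09 to -1.42). Of 10 neutrophil markers, 4 were detected in microglia in naive and 8 at 3 d, and their part in the Il1b call was not tested.

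The calls at 3 d depended on which cells were taken as microglia. By markers without clusters, the log2 ratio was 1.24 for Ccl12, 0.07 for Cxcl10 and 0.15 for Il1b. In the 109, 39 and 88 microglia with at most 1 UMI of other classes' markers, Ccl12 was at -0.014 and Cxcl10 at -0.28, and Ccl2, Ccl3 and Tnf, which were not called at 3 d, at -0.32, -0.38 and -0.24. This subset was a small part of the 974, 270 and 1212 microglia. A limit in UMIs per cell passes shallow cells more readily, and the depth of the subset is not given here. Why its values differed was not tested. With the unnamed clusters of microglial markers added, Il1b was at -0.15.

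Between the TIA libraries, Tnf was lower at 3 d than at 24 h by a log2 ratio of -1.91 (-2.09 to -1.73), Ccl3 by -1.08, Ccl2 by -0.90 and Ccl4 by -0.85. Cxcl2 had the largest ratio, -4.68 (-6.39 to -3.33), on 35 and 5 UMIs, and Ccl7 had -1.01 (-1.80 to -0.19) on 22 and 40. Il1a was at -0.19 (-0.31 to -0.06), and the interval of Il1b, -0.05 to 1.31, included 0. Cxcl10 was higher at 3 d by 1.16 (0.81 to 1.53) and Ccl12 by 1.00 (0.85 to 1.14). Each of these ratios compares 2 libraries, not the conditions.

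When cells were clustered without these genes, other chemokines and immediate early genes, microglia again fell into 2 clusters, the smaller led by Ccl12, Ifi204, Ifi209, Ifi27l2a, Phf11b and Tnf, and further by Slamf9, Gm4951, Fcgr4 and Gpr84. Tnf was at 34.7, 125 and 41.3 CPM in the larger cluster and at 56.9, 222 and 55.3 CPM in the smaller, so that 24 h was highest in both. Cxcl10 was at 7.28, 18.9 and 6.97 CPM in the larger cluster and at 57.9, 32.2 and 97.5 CPM in the smaller, where most of its UMIs lay. Ccl12 was at 77.7, 117 and 133 CPM in the larger and at 220.3, 201 and 452 CPM in the smaller.

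The share of microglia with a UMI of a gene was compared after each cell had been thinned to 2000 UMIs, which left 962, 267 and 1204 cells, with 12, 3 and 8 shallower cells left out. Ccl4 was held by 39.9% of naive microglia (36.8 to 43.1), 42.7% at 24 h (36.7 to 48.9) and 35.0% at 3 d (32.3 to 37.7). Ccl3 was held by 27.9% (25 to 30.8), 43.4% (37.4 to 49.6) and 26.9% (24.4 to 29.5). Tnf was held by 4.89% (3.61 to 6.44), 14.6% (10.6 to 19.4) and 6.40% (5.08 to 7.93). For Ccl3 and Tnf the 24 h interval lay above those of the other libraries.

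Ccl12 showed another pattern, with 14.9%, 14.6% and 15.9% of microglia holding it while its CPM at 3 d was 2.26-fold that of naive. Il1a was held by 27.8%, 26.2% and 25.2%, and Ccl2 by 5.41%, 7.12% and 6.31%. Cxcl10 was held by 1.04%, 2.25% and 1.91%, and Il1b by 0.832%, 1.12% and 1.08%. Ccl7 and Cxcl2 were held by at most 0.749% of the cells in every library, with intervals that overlapped.

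Without thinning, the shares were 52.9%, 55.9% and 52.5% for Ccl4, 45.9%, 61.5% and 43.4% for Ccl3, and 14.4%, 33.7% and 16.2% for Tnf. Il1a was found in 57.3%, 58.5% and 53.2% of microglia and Ccl12 in 34.2%, 37.4% and 34.8%. These depend on depth, which was higher in microglia at 24 h.

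Shares in cells that should lack these genes were taken as a background, in which free RNA and doublets are not told apart, since doublets were not left out here. In thinned oligodendrocytes Ccl4 was seen in 1.73%, 1.41% and 2.40% of cells and in neuron-like cells in 1.65%, 1.00% and 1.65%, at median depths before thinning of 13417, 16150.5 and 12901 UMIs and of 7133, 8700.5 and 8305 UMIs. Tnf was seen in 0%, 0% and 0.400% of oligodendrocytes and in 0.137%, 0% and 0.826% of neuron-like cells. Its 0 of 231 cells in naive oligodendrocytes has an upper limit of 1.58%, and its 0 of 71 cells at 24 h one of 5.06%. The intervals of the microglial shares of Ccl4, Ccl3, Il1a, Ccl12 and Tnf lay above those in both classes in every library. Those of Ccl2 did so in naive and at 3 d, but at 24 h its interval of 4.34% to 10.9% overlapped the limit of 5.06%. The shares of Cxcl10, Il1b, Ccl7 and Cxcl2 could not be told from such a background in every library, since the same limit held for them at 24 h.

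**Figure D3:**
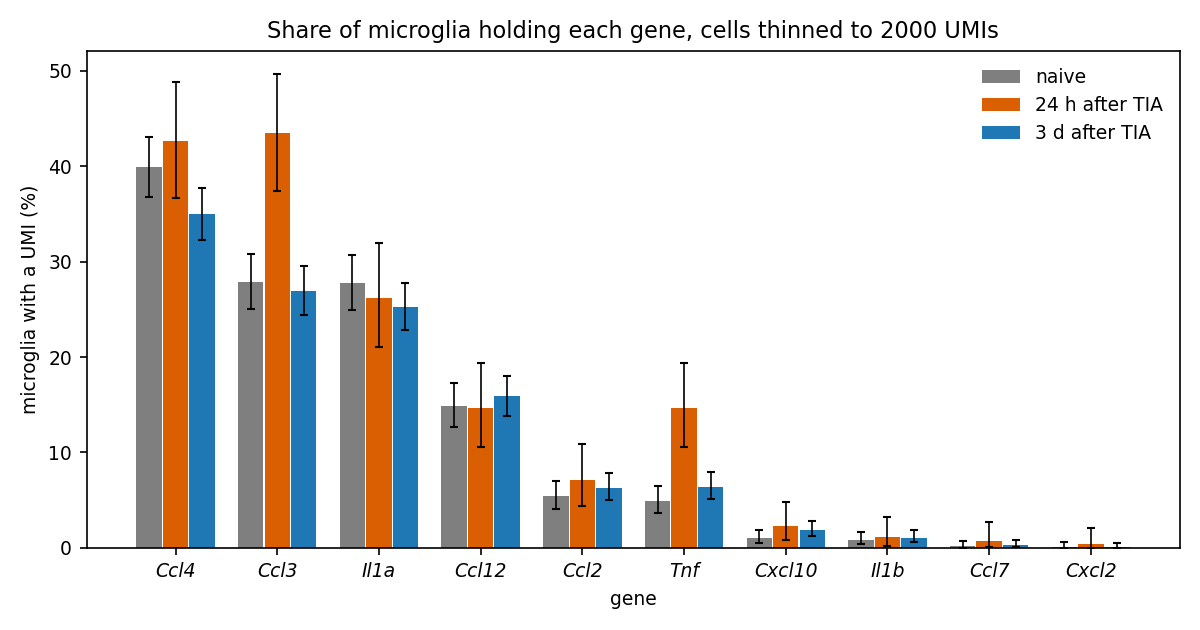
Share of microglia with at least 1 UMI of each gene (%), cells thinned to 2000 UMIs, 1 bar per library (gray naive, orange 24 h, blue 3 d after TIA) with Clopper-Pearson intervals at 95%. Ccl3 (27.9%, 43.4% and 26.9%) and Tnf (4.89%, 14.6% and 6.40%) have their highest bar at 24 h.

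Single microglia often held several of the genes. At 2000 UMIs per cell, at least 1 gene was found in 68.8% of naive microglia, 74.2% at 24 h and 65.8% at 3 d. At least 2 genes were found in 35.0% (32.0 to 38.1), 40.8% (34.9 to 47.0) and 33.1% (30.4 to 35.8), intervals that overlapped in all 3 libraries. At least 3 were found in 13.3% (11.2 to 15.6), 20.6% (15.9 to 26) and 13.5% (11.6 to 15.5), and at least 4 in 4.05% (2.90 to 5.5), 10.5% (7.08 to 14.8) and 4.15% (3.1 to 5.44). The 24 h library stood apart from both others in these last counts, at 3 and at 4 genes. The highest number in a thinned cell was 7, 7 and 8.

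Cells with at least 2 genes were 65.9%, 74.4% and 63.7% without thinning. In the thinned cells of other classes they were 0%, 0% and 1.60% of oligodendrocytes, 0.137%, 0% and 0% of neuron-like cells, and 0.791%, 0% and 0.354% of astrocytes. The tenth of microglia with most UMIs of these genes held 48.9%, 49.8% and 58.4% of them.

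**Figure D4:**
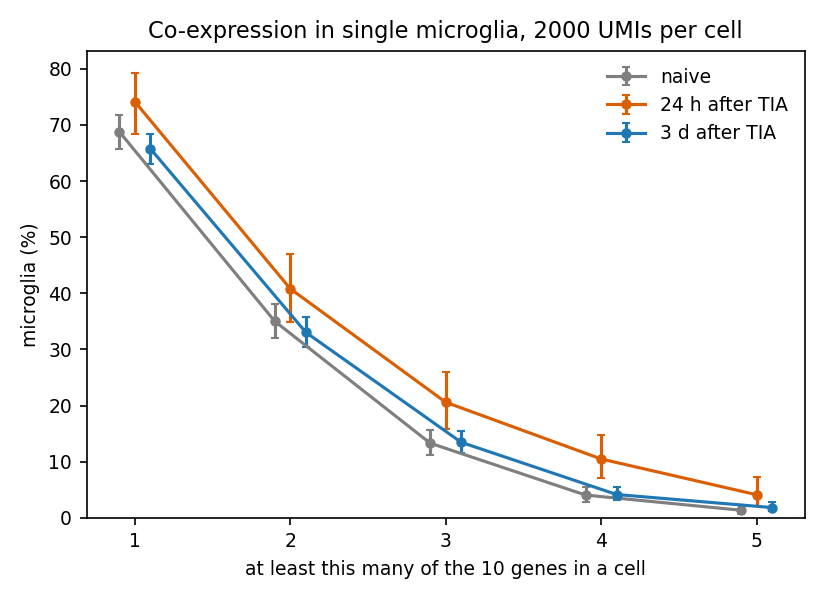
Share of microglia (%) that hold at least the given number of the 10 genes, cells thinned to 2000 UMIs, 1 line per library (gray naive, orange 24 h, blue 3 d after TIA) with Clopper-Pearson intervals at 95%. At 4 genes the shares are 4.05%, 10.5% and 4.15%.

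Ccl3 and Ccl4 were found together more than any other of the 45 pairs. Both were seen in 160, 69 and 193 thinned microglia, which were 59.7%, 59.5% and 59.6% of the cells with Ccl3. Ccl4 was found in 32.3%, 29.8% and 25.9% of the cells without Ccl3. Across the cells of a library, Pearson's r of the log-normalized values was 0.364 (962 cells), 0.447 (267 cells) and 0.456 (1204 cells), given as a description because cells of a library share depth and free RNA. Next by the number of cells over all 3 libraries were Ccl4 with Il1a (129, 39 and 128 cells), Ccl3 with Il1a (86, 40 and 90), Ccl4 with Ccl12 (64, 25 and 88) and Ccl3 with Ccl12 (46, 26 and 69). This order did not hold in each library, since Ccl12 with Il1a (49, 15 and 62 cells) came before Ccl3 with Ccl12 in naive. At 24 h Ccl3 with Il1a came before Ccl4 with Il1a, and Ccl4 with Tnf (29, 27 and 35 cells) before both pairs with Ccl12.

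Other pairs of neighboring genes met more rarely. Ccl2 and Ccl12 were both seen in 17, 7 and 29 cells, 32.7%, 36.8% and 38.2% of the cells with Ccl2. Ccl2 and Ccl7 shared 1, 1 and 3 cells, and Ccl7 and Ccl12 shared 0, 1 and 3. Il1a and Il1b shared 2, 2 and 6 of the 8, 3 and 13 cells with Il1b.

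In the mouse genome (GRCm38, GENCODE M21), 5 of the genes lie on chromosome 11. Ccl2 (chr11:82035571-82037453), Ccl7 (chr11:82045712-82047525) and Ccl12 (chr11:82101845-82103400) follow each other on the plus strand, with 3 exons each, a gap of 8258 bases between Ccl2 and Ccl7, and Ccl11 between Ccl7 and Ccl12. Ccl3 (chr11:83647844-83649355, minus strand) and Ccl4 (chr11:83662584-83664683, plus strand), also with 3 exons each, are 13228 bases apart with no coding gene between them. Il1a (chr2:129299610-129309972) and Il1b (chr2:129364570-129371139) have 7 exons each on the minus strand of chromosome 2 and are 54597 bases apart. Cxcl2 (chr5:90903871-90905938, plus strand) and Cxcl10 (chr5:92346638-92348889, minus strand) have 3 exons each, and Tnf (chr17:35199381-35202007, minus strand) has 4. Ccl2, Cxcl10, Il1a and Il1b overlap the genes Gm17268, Art3, Gm14023 and Il1bos, whose UMIs may not be told apart from theirs where counting ignores strand.

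The 250 bases upstream of the start were read from RefSeq (GRCm38.p6) for the 7 genes with an entry, which were Ccl3, Ccl12, Cxcl10, Cxcl2, Tnf, Il1a and Il1b. The NF-κB consensus, searched on both strands, was found in Cxcl10 and Cxcl2, and in 7.25% of 32851 such windows. The interferon-response type motif, TTTC and again TTTC with any 2 bases between, was found in Cxcl10 and in 2.98% of the windows, and the AP-1 motif TGANTCA in Cxcl10 and Il1a and in 6.75%. The upstream stretches of Cxcl10 (chr5:92348890-92349139, minus strand) and Cxcl2 (chr5:90903649-90903898, plus strand) are shown, as the genes that held the NF-κB match, of which the first was called at 3 d and the second at 24 h. RefSeq starts Cxcl2 further downstream than GENCODE does, so that the last bases of its stretch lie within the gene as placed above. Capitals mark matches to the NF-κB consensus and to the interferon-response type motif on either strand, some of which overlap, and a match is a description of letters and not a site.
Cxcl10: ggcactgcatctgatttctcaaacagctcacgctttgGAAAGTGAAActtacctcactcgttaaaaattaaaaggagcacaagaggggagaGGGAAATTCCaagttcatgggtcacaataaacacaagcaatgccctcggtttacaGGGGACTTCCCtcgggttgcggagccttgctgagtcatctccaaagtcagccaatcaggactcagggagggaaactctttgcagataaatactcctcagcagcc
Cxcl2: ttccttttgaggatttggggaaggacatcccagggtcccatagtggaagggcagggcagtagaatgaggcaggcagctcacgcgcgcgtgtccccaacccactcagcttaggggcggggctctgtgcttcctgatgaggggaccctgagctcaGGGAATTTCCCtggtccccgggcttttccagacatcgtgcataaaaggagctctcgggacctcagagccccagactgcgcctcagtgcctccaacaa

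Receptors of these chemokines were taken from a list of their own. Counts for this and the lists that follow stand beside 2.39% higher and 2.64% lower among all genes at 24 h and 1.71% and 0.959% at 3 d, and the lists were not tested against these. Of 11 receptor genes, 4 had 30 UMIs at 24 h and 6 at 3 d. Ccr2, the receptor of Ccl2, Ccl7 and Ccl12 and a monocyte marker, had 40, 3 and 28 UMIs and was the only one called lower at 24 h. At 3 d 0 were called. Ccrl2, which binds chemoattractants without signaling, was at 69.6, 84.0 and 72.0 CPM, and Ccr1 at 6.56, 6.60 and 5.79 CPM. Cxcr3 had 19, 2 and 13 UMIs and Ackr4, a scavenger of other chemokines that the list also held, 16, 12 and 26.

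Among 13 other chemokine receptors, Cx3cr1, the fractalkine receptor of microglia, was the most abundant at 4758, 4462 and 4176 CPM. Ccr6 was the only one at least 2-fold lower at 24 h (7.34 and 3.67 CPM from 57 and 10 UMIs), 0 were higher, and at 3 d 0 were called either way. The median log2 ratios of this list were -0.95 over 3 genes with enough UMIs at 24 h and -0.19 over 5 at 3 d, against -0.31 and -0.25 for the receptors of the chemokines described here.

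None of the 18 genes for TNF and IL-1 receptors, antagonists and processing was called at either time, over 16 with enough UMIs at 24 h and 17 at 3 d (median log2 ratios of 0.13 and 0.07). Tnfrsf1a was at 86.5, 94.6 and 82.2 CPM and Tnfrsf1b at 122, 129 and 132 CPM. Adam17, the protease that sheds TNF, was at 195, 173 and 189 CPM. Nlrp3, a sensor of the inflammasome, was at 101, 112 and 97.8 CPM, its adaptor Pycard at 266, 237 and 256 CPM, and Casp1, which cleaves IL-1β, at 37.4, 43.6 and 37.6 CPM. The remaining 11 named by the rule had log2 ratios between -1.30 (Il1r2, 21 and 3 UMIs) and 0.93 (Il1r1, 24 and 16 UMIs) at 24 h, and between -0.09 and 0.31 at 3 d.

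Of 20 genes for NF-κB subunits and feedback inhibitors, 19 had enough UMIs, and 2 were at least 2-fold higher at 24 h. Nfkbia, the inhibitor that NF-κB itself induces, was at 226, 542 and 299.8 CPM, which is 1.26 on the log2 scale for 24 h against naive and 0.41 for 3 d. Ier3 was at 102, 208 and 120.0 CPM (1.02 and 0.23). Nfkbiz was at 209, 331 and 279 CPM and Nfkb2 at 13.9, 23.1 and 19.3 CPM, and neither passed 2-fold. At 3 d 0 genes of the list were called, and the median log2 ratios were 0.20 and 0.11.

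Of 11 genes that act on the decay of cytokine mRNA or end its induction, only Dusp2 was at least 2-fold higher at 24 h (3.35 and 8.07 CPM from 26 and 22 UMIs), and 0 were called at 3 d, with medians of 0.22 and 0.07. Dusp1, a phosphatase of MAP kinases, was at 357, 551 and 431 CPM, a log2 ratio of 0.63 (0.53 to 0.72) at 24 h, and Zfp36l1, an mRNA decay factor, at 868, 776 and 864 CPM.

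Most type I interferon genes did not reach 2-fold at either time. At 24 h, 6 of 30 were at least 2-fold lower and 0 higher, with 24 of the 30 ratios negative (median -0.48), and at 3 d 13 of 34 were at least 2-fold higher and 0 lower, with all 34 ratios positive (median 0.77). Over all genes, 2.64% were lower at 24 h and 1.71% higher at 3 d. Irf7, the transcription factor that amplifies interferon, had 55 UMIs in naive (7.08 CPM), 2 at 24 h (0.733 CPM) and 149 at 3 d (14.9 CPM). Ifi204, whose ratio at 24 h was positive, was at 9.91, 18.7 and 48.3 CPM, Ifi27l2a at 15.2, 4.77 and 57.7 CPM, and Oasl2 at 5.41, 3.30 and 23.6 CPM. The 2 comparisons share the naive library, and a difference between them was not tested.

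The UMIs of this list were also counted in cells with and without Cxcl10. Thinned microglia with Cxcl10 had a mean of 15.7 interferon-list UMIs in naive (10 cells), 2.17 at 24 h (6 cells) and 18.3 at 3 d (23 cells), and those without had 1.29, 1.28 and 2.18. The medians were 0.5, 1 and 12 against 1 in all 3, so that a few cells carried the naive mean. Microglia with Tnf had a mean of 7.83, 10.3 and 8.97 UMIs of the NF-κB list, and those without had 4.19, 4.39 and 4.40. These are means over cells of 1 library each and carry no test.

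The 10 genes whose values across single microglia were most like the sum of the chemokines and cytokines were, of 5372 compared, Ier3, Nfkbia, Egr1, Ier2, Nfkbiz, Cd83, Plek, Mapkapk2, Zfp36 and Adamts1. The mean Pearson's r over the 3 libraries was 0.309 for Ier3, 0.305 for Nfkbia and 0.304 for Egr1, and 0.211 for Adamts1 at the end of this order. The values are low, and depth and free RNA are shared by the cells of a library.

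Immediate early and dissociation genes, which tissue dissociation can induce, were counted beside these results. Of 30, 0 were called at 24 h and 0 at 3 d, with median log2 ratios of 0.12 at both, and their summed level was 14613 CPM in naive, 14306 at 24 h and 14944 at 3 d. Jun, the most abundant, was at 3101, 2676 and 2997 CPM, Cebpb at 169, 285 and 178 CPM, Egr1 at 228, 332 and 329 CPM, and Hspa1a at 251, 163 and 198 CPM. Microglia with Tnf had a mean of 34.2, 32.1 and 38.4 UMIs of this list and those without 28.9, 28.8 and 29.3. The part of dissociation in the levels of the chemokines and cytokines was not tested.

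Of 16 homeostatic microglial genes, 0 reached 2-fold at either time, with 16 of 16 ratios negative at 24 h (median -0.43) and 15 of 16 at 3 d (median -0.29). Cst3, the most abundant, was at 26804, 18447 and 18220.4 CPM, Slc2a5 at 258, 132 and 209 CPM, and Olfml3 at 1006, 598 and 716 CPM.

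Markers of other cells in microglia also differed between libraries. The 5 erythroid markers summed to 1281 CPM in naive, 20.2 at 24 h and 106 at 3 d, with Hbb-bs leading at 725, 12.5 and 53.0 CPM. The 10 markers of border-associated macrophages summed to 185, 254 and 208 CPM, of which Stab1 gave 164, 236 and 191 CPM, and Cd209f was at 0 in all 3. Neutrophil markers summed to 396, 392 and 439.9 CPM and were nearly all Csf3r (395, 392 and 431 CPM), which microglia express. Of the 10 markers, 4, 2 and 8 were detected, with S100a9 and Retnlg at 0 in naive and at 24 h but not at 3 d. Monocyte markers summed to 38.2, 49.1 and 48.0 CPM, led by Nr4a1, with 7, 6 and 9 of 10 detected and Ly6c2 and Chil3 at 0 in naive and at 24 h but not at 3 d. The 11 astrocyte markers summed to 388, 443 and 523 CPM, led by Slc1a3, and the 11 oligodendrocyte markers to 166, 60.1 and 108 CPM. The part of these cells in the results was not tested beyond the subset of microglia with at most 1 UMI of such markers.

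Other secreted signals were counted where their UMIs allowed it. Of 31 other chemokine ligands, 6 had enough UMIs at 24 h and 10 at 3 d, with medians of -0.04 and 0.16. Cxcl17 was called higher (3.86 and 8.07 CPM) and Ccl24 lower (6.31 and 2.93 CPM) at 24 h, and Cxcl12 and Cxcl13 were called higher at 3 d. Ccl6 was the most abundant at 90.3, 91.3 and 76.1 CPM, and Cxcl16, the ligand of Cxcr6, was at 45.9, 79.9 and 46.6 CPM. Of 26 other cytokines, 15 and 16 had enough UMIs, with 2 called higher at each time, 0 lower, and medians of 0.14 and 0.16. Spp1, the secreted phosphoprotein osteopontin, had 4 UMIs in naive (0.515 CPM), 42 at 24 h (15.4 CPM) and 170 at 3 d (17.0 CPM). Tnfsf9 was the other gene called at 24 h and Il12b the other at 3 d, Tgfb1 was the most abundant at 287, 243 and 279 CPM, and Csf1, which sustains microglia, was at 61.5, 96.4 and 78.5 CPM. Mif, the macrophage migration inhibitory factor, was at 70.7, 136 and 76.9 CPM, with a log2 ratio at 24 h of 0.95 (0.75 to 1.14), just under 2-fold. Genes called on so few UMIs, here Tnfsf9, Il12b, Cxcl12 and Cxcl13, were named after their values were seen.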

How the data were processed

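Single-cell RNA libraries of 3 groups, 1 library each, were used. The authors made the deposited UMI counts, whole numbers per gene and cell barcode, with Cell Ranger aligned to mm10, as a filtered matrix. The file header names version 7.1.0, and the submitters' processing notes 3.1.0. Cells were filtered as above, genes in under 3 cells dropped, and the rest clustered with Seurat 5.3.0 in R 4.3.3 (log-normalization, 2000 vst features, UMIs and mitochondrial share regressed out, 20 components, resolution 0.5). A cluster was named when at least 3 markers of a cell type were in at least 10% of its cells and 2-fold above other cells. Shallow clusters without own markers among their leading genes, and clusters led by markers of another type, stayed unnamed, by limits set after the clusters were seen. Scrublet (scanpy 1.11.5) marked doublets, which were left out only as an alternative. UMIs were summed per class and library and scaled to CPM. Ratios have conditional binomial intervals (scipy 1.17.1, numpy 2.4.6), and a gene at 0 was set to a floor of 3 UMIs. The intervals were checked on simulated Poisson counts, which they assume. That check cannot show how they do where a few cells hold most UMIs. A call required 2-fold and 30 UMIs over both libraries. Named genes were the 10 genes, receptors and TNF and IL-1 pathway genes with 30 UMIs, and from each other list the most abundant gene and the 3 with the largest ratio at each time among those with 50 UMIs. Some of these are not reported here. Members and lists were chosen with earlier results of these data known. Coordinates are from GENCODE M21, while the authors' annotation was another GENCODE release.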

Additional observations from a re-analysis of the deposited data

Results flagged for a closer look

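Some genes were called in opposite directions in different named cell classes in the same comparison, and none of these differences was tested. At 24 h, Ccl2 had a log2 ratio of 1.09 in microglia, and of at most -1.86 in astrocytes, where it had 34 UMIs in naive and 0 at 24 h. Ccl3 had 1.12 in microglia, -3.75 in astrocytes (126 and 3 UMIs) and -2.84 in neuron-like cells (41 and 1 UMIs). At 3 d, Ccl2 had -3.17 in astrocytes (34 and 6 UMIs) and 4.96 in oligodendrocytes (1 and 33 UMIs). Ccl4 at 3 d had -1.24 in astrocytes (237 and 159 UMIs), 2.37 in oligodendrocytes (27 and 148 UMIs) and 2.80 in endothelial cells (11 and 151 UMIs). In the unnamed mixed immune cells, 40 and 48 cells of unlike makeup in naive and at 3 d, Il1b at 3 d was at -1.75 (160 and 143 UMIs), against 1.11 in microglia, and Ccl2 at -1.30 (184 and 225 UMIs). Some of the directions in named classes depended on doublets. Without doublets, Ccl4 at 3 d was at 0.19 in astrocytes, 0.014 in oligodendrocytes and -0.21 in endothelial cells, Ccl3 in astrocytes at 24 h was at -1.24, and Ccl2 in astrocytes was at -1.29 at 3 d and at most 0.56 at 24 h. Ccl2 in oligodendrocytes then had too few UMIs for a value. Ccl3 in neuron-like cells at 24 h was at -2.28. Scrublet called 27, 1 and 32 doublets among the astrocytes, 14, 1 and 22 among the oligodendrocytes and 5, 0 and 16 among the endothelial cells of naive, 24 h and 3 d.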

How the results depend on the processing

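No paired analysis was possible because each group has 1 library. Over the alternatives for single genes, 207 values were computed, of which 144 lay within the counting interval, 56 moved outside it and 7 turned the direction of a called value. Leaving out doublets, other resolutions, clustering without the genes and scaling by the median ratio (shifts of 0.05 and 0.06 on the log2 scale) left the called counts in microglia at 4 higher at 24 h and 3 higher at 3 d. With microglia by 6 markers without clusters (1147, 149 and 1111 cells), 2 genes were higher and 1 lower at 24 h and 1 higher at 3 d. The shares with at least 2 genes were then 25.8%, 32.4% and 24.4%. Without the 5 cells with most UMIs, 1 gene was higher at 24 h. With a 3-fold limit, 2 were higher at 24 h and 0 at 3 d. With only cells failing both limits left out, 5 were higher at 24 h and 4 at 3 d, with Ccl7 added at both. With unnamed clusters of microglial markers added, 4 genes were higher at 24 h, with Ccl7 in place of Ccl3, and 2 higher and 1 lower at 3 d (Ccl7), and Il1b was at -0.15. With at most 1 UMI of other classes' markers (109, 39 and 88 cells), 4 genes were higher at 24 h, with Cxcl10 in place of Cxcl2. The log2 ratio of Cxcl2 was at least 4.22 there, with too few UMIs for a call. At 3 d, 0 genes were higher and 1 lower (Il1a) in these cells. Ccl12 was at -0.014 and Cxcl10 at -0.28, and the share with at least 2 genes at 3 d was 29.8%. That share was 21.2%, 29.4% and 20.5% at 1000 UMIs per cell, 50.9%, 58.6% and 48.1% at 4000, and 65.9%, 74.4% and 63.7% without thinning, which follows from depth. It was 14.2%, 20.6% and 13.2% when at least 2 UMIs of each gene were required, which is a stricter limit of detection. In an alternative chosen after seeing the data, doublets were left out of the other classes. The log2 ratio of Ccl4 in astrocytes was then 1.08 at 24 h and 0.19 at 3 d, and in endothelial cells at 3 d Ccl3 was at -0.17 and Ccl4 at -0.21. Ccl2, Ccl12, Tnf and Il1a in oligodendrocytes at 3 d had at most 3 UMIs in both libraries and gave no value. The cause of the other changes was not tested. Depth limits Cxcl2, Ccl7 and Il1b, which had under 50 UMIs in microglia of at least 1 library.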

Other observations

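Cells with microglial markers that were left unnamed also held the 10 genes. A high-depth sub-cluster with all 12 microglial markers, led by the macrophage gene Pf4, had 63 cells in naive, 17 at 24 h and 119 at 3 d. Its median depths were 21333, 19279 and 25889 UMIs. Its summed level was 1246, 1512 and 1023 CPM, at 24 h from few cells. It held 11.9% of the Il1a UMIs in naive, 7.28% at 24 h and 19.1% at 3 d. A low-depth cluster had 298, 25 and 148 cells with median depths of 2052, 2477 and 2021 UMIs, and summed levels of 1182, 1309.6 and 936 CPM.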
